A study of Rattus norvegicus with 8 samples.

Results

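The neuropeptide genes measured here were 10 genes read by 14 probe sets of a rat genome array of 8799 probe sets, in total RNA from whole rat brain. The genes are 10 of 4737 that the array names with a single symbol. They were chosen by name: every probe set that the array's annotation assigns to Oxt, Avp, Gal, Pmch, Hcrt, Trh, Crh, Sst, Npy or Vip was taken, whatever its values. 7 genes with 10 probe sets encode peptides made largely by neurons of small hypothalamic nuclei (Oxt, Avp, Pmch, Hcrt, Trh, Crh and Gal), although Trh, Crh and Gal are also made elsewhere in the brain. The other 3 genes, with 4 probe sets, encode peptides made by more widespread neurons, those of the cortex among them (Sst, Npy and Vip). The division is not strict, since these 3 peptides are made in the hypothalamus too. The 8 arrays each held 1 sample. The control group (n = 3) was given isoflurane, a volatile anaesthetic, for 3 min by inhalation, and these rats were then perfused at once with ice-cold saline, a perfusion that the labels give for the controls only. The 1 hr group (n = 2) and the 2 hr group (n = 3) came from rats given 2% isoflurane for that time, and every rat of the 3 groups had been intubated. No group without isoflurane was analysed here, so each comparison sets a long exposure against a short one. The labels give no strain, sex, age or animal number, so p-values reflect only how far these samples differed from one another, which may be partly technical.

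Neuropeptides are cut from larger precursor proteins, packed into dense core vesicles and released to act on G protein-coupled receptors. Oxytocin and vasopressin are made by large (magnocellular) neurons of the paraventricular and supraoptic nuclei, which send axons to the posterior pituitary. Melanin-concentrating hormone (Pmch) and hypocretin, also called orexin (Hcrt), come from separate neurons of the lateral hypothalamus and take part in sleep, waking and feeding. Corticotropin-releasing hormone (Crh) and thyrotropin-releasing hormone (Trh) of the paraventricular nucleus drive the anterior pituitary, and galanin (Gal) is made in sleep-promoting preoptic neurons, in magnocellular neurons and in the locus coeruleus. Somatostatin (Sst), neuropeptide Y (Npy) and vasoactive intestinal peptide (Vip) mark classes of inhibitory interneurons, and Sst and Npy are often made in the same cells.

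Oxt and Avp lie next to each other on chromosome 3, on opposite strands, with no other gene between them in the RefSeq annotation of assembly GRCr8. The 250 bases before the annotated start are shown for this pair, whose readings were high on the same arrays, and for Sst and Npy, whose readings ran together over the 8 arrays. Capitals mark TGACC or its reverse complement GGTCA, a half-site recognised by several nuclear receptors. The Oxt window is chr3:138235504-138235753 on the plus strand, Avp chr3:138248523-138248772 on the minus strand, Sst chr11:90461296-90461545 on the plus strand and Npy chr4:80211861-80212110 on the plus strand, each written 5′ to 3′ along the gene.
Oxt: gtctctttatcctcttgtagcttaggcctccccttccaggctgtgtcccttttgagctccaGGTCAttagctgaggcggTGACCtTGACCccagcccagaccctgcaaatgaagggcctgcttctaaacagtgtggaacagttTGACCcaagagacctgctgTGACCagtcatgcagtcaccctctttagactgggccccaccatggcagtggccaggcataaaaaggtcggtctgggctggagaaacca
Avp: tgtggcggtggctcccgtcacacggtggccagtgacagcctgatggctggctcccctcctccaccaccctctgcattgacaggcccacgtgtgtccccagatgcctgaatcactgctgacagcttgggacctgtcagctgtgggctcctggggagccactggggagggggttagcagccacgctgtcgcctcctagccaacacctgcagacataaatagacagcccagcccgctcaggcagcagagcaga
Sst: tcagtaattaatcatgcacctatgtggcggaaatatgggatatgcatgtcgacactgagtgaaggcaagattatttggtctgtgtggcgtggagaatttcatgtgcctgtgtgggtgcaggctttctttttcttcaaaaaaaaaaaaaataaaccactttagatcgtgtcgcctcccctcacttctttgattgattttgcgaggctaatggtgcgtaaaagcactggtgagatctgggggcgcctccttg
Npy: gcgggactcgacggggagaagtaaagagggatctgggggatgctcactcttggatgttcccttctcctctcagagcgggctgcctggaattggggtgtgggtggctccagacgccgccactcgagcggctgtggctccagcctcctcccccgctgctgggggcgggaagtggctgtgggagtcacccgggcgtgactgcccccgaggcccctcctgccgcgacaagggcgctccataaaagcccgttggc
The Oxt window held 5 copies of the half-site, between 189 and 84 bases before the start, and the windows of Avp, Sst and Npy held none. Over the RefSeq promoter table, 35.4% of 33469 windows of this length held at least 1 copy on either strand. The full cyclic AMP response element TGACGTCA, searched on both strands, was in 1.59% of windows and in none of the 8 members' windows that the table held. TATAAA was in 12.9% of windows on either strand and in those of Gal, Hcrt and Vip. The table gave no window for Pmch and Crh. A match is a run of letters in this window and not a measured binding site. An absence covers only the exact letters within these 250 bases. Bases outside the window and variant sites were not searched, so it does not show that a gene lacks the element.

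Intensities are the values deposited by the authors, on a linear scale, and have no unit beyond the array's own brightness. Intensities of different probe sets cannot be set against each other. Values at or under 9.1, the 20th percentile of all values and 3.19 on the log2 scale, were raised to that floor before log2 was taken. Probe sets that exceeded this floor on 2 or more arrays were tested, and all 14 neuropeptide probe sets did. The test was limma's moderated test on all 8 arrays, adjusted after Benjamini and Hochberg for the 7770 probe sets tested, with a threshold of 0.05. Readings are given in the order of the replicate numbers. Several arrays stood apart in ways that cross the groups. The highest intensity was 23009 to 37712 on control replicate 3, 1 hr replicate 1 and 2 hr replicate 3, and 3504 to 12445 on the other 5 arrays. The array's 5S ribosomal RNA control was low, at 12.9 to 23.7, on 3 arrays (control replicate 1, control replicate 2 and 2 hr replicate 1), and at 70.4 to 141.7 elsewhere. In whole-brain RNA, fewer cells of a type and less RNA per cell cannot be told apart.

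Oxt and Avp were each very high on the same 2 arrays, replicate 1 of the 1 hr group and replicate 2 of the 2 hr group, and far lower on all 3 controls and the other 3 exposed arrays. The single Oxt probe set (K01701_at) read 25.3, 16 and 11.7 on the controls, 153.3 and 33.8 at 1 hr, and 16, 1579.7 and 19.9 at 2 hr. The 2 hr replicate 2 reading was 10.3 times the next highest and 69.9 times the median of the 8 arrays, while the other 2 hr arrays lay within the control range. The brightest Avp probe set (M25646_at) read 111.9, 121.8 and 121.0 on the controls, 771.2 and 104.6 at 1 hr, and 118.1, 2198.8 and 163.4 at 2 hr. Its highest reading was 2.85 times the next highest and 18.1 times the median of the 8 arrays. A second Avp probe set (M64785_g_at) read 34.5, 37.7 and 52.7 on the controls, 303.2 and 62.6 at 1 hr, and 39.9, 1456.1 and 69.3 at 2 hr, so the same arrays stood apart on it. The remaining one (M64785_at) was above the floor only on those arrays, reading 9.9 and 10 there, and its changes are not interpreted.

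Neither gene passed the test in any comparison. At 2 hr the log2 change of Oxt from control was 2.24 ± 1.51 (SE; n = 3 and 3; 95% interval -1.13 to 5.62; limma adjusted p = 1.0), and without 2 hr replicate 2 it was 0.088. At 1 hr it was 2.10 ± 1.69 (n = 2 and 3; limma adjusted p = 1.0), and without 1 hr replicate 1 it was 1.01. Both 1 hr readings of Oxt lay above all 3 controls, although the lower of them exceeded the highest control only from 25.3 to 33.8. The 2 hr change of Avp was 1.56 ± 1.04 on M25646_at and 1.96 ± 1.16 on M64785_g_at, and 0.23 and 0.36 without 2 hr replicate 2. The 1 hr change was 1.27 ± 1.16 and 1.75 ± 1.30 on the same probe sets, and -0.18 and 0.61 without 1 hr replicate 1. A single array therefore set the size of each of these changes, and on M25646_at also the direction at 1 hr.

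Pmch and Gal were near the floor on most arrays and each had 1 array far above the others. Pmch (M62641_at) read 4.3, 6.5 and 21.4 on the controls, 765.1 and 4.4 at 1 hr, and 15.1, 15.6 and 6.5 at 2 hr. Its high array, 1 hr replicate 1, is one of the pair that was high for Oxt and Avp, and read 35.8 times the next highest. On 2 hr replicate 2, where Oxt and Avp were highest, Pmch at 15.6 lay below the highest control. The 1 hr change of Pmch was 2.79 ± 1.42 on the log2 scale with a 95% interval of -0.40 to 5.98 (unadjusted p = 0.08, limma adjusted p = 1.0). Without 1 hr replicate 1 it was -0.41, and without 1 hr replicate 2 it was 5.98. Either choice leaves 1 array in the 1 hr group, so only the size of the change is given. At 2 hr the change of Pmch was 0.09 ± 1.27, and 2 hr against 1 hr it was -2.69 ± 1.42, which became 0.50 without 1 hr replicate 1.

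Gal (J03624_at) read 7.4, 10.4 and 8.1 on the controls, 9.2 and 6.0 at 1 hr, and 7.9, 63.9 and 10.1 at 2 hr. It was above the floor on 4 of the 8 arrays and stood out on 2 hr replicate 2 alone, at 6.14 times the next highest. On 1 hr replicate 1, which was high for Oxt, Avp and Pmch, Gal was at 9.2, within the control range. The 2 hr change of Gal was 0.92 ± 0.635 (95% interval -0.50 to 2.35; limma adjusted p = 1.0) and 0.011 without 2 hr replicate 2, and its 1 hr change was -0.06 ± 0.71. The high readings of Pmch and Gal were thus on different arrays, and each shared its array with Oxt and Avp.

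Hcrt was the 1 neuropeptide gene whose 5 exposed arrays all lay above its 3 controls. Hcrt (AF019565_at) read 142.6, 110.6 and 140.4 on the controls, 322.3 and 173.8 at 1 hr, and 148.3, 216.4 and 202.1 at 2 hr. The gap between the groups was narrow, from 142.6 on the highest control to 148.3 on the lowest exposed array. Over all probe sets tested, 0.927% had every exposed array above every control, a count made after the values had been seen. The 1 hr change of Hcrt was 0.86 ± 0.344 on the log2 scale, a fold of 1.82 (n = 2 and 3; 95% interval 0.09 to 1.63; unadjusted p = 0.0324, limma adjusted p = 1.0). Without 1 hr replicate 1, the highest array, it was 0.42. The 2 hr change was 0.52 ± 0.308, a fold of 1.43 (n = 3 and 3; 95% interval -0.17 to 1.21; limma adjusted p = 1.0), and stayed between 0.40 and 0.68 when each array was left out in turn. The change from 1 hr to 2 hr was -0.34 ± 0.344, and 0.10 without 1 hr replicate 1. Hcrt therefore missed the threshold in every comparison, and its 1 hr array of highest reading was again the array that was high for Oxt, Avp and Pmch.

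Trh and Crh showed no such single high array. The first Trh probe set (M23643cds_s_at) read 74.1, 71.1 and 88.1 on the controls, 111.0 and 59.2 at 1 hr, and 59.7, 83.3 and 60.6 at 2 hr, and the groups overlapped. The second (M36317_s_at) read 29.9, 18.5 and 70.4, then 73.4 and 46.7, then 29.7, 70.5 and 34.4. On both, 1 hr replicate 1 gave the highest reading, but on the second probe set by only 73.4 against 70.5 and 70.4. The 2 probe sets differed in sign at 2 hr, with log2 changes of -0.21 ± 0.356 and 0.30 ± 0.577. At 1 hr their changes were 0.07 ± 0.398 and 0.79 ± 0.645, and without 1 hr replicate 1 the first was -0.39. Crh (M54987_at), the peptide at the head of the stress axis, read 23.4, 22.8 and 32.2 on the controls, 22.5 and 19.7 at 1 hr, and 34.1, 22.0 and 20 at 2 hr. Both 1 hr readings of Crh lay just below the lowest control, 22.5 against 22.8, and its changes were -0.29 ± 0.441 at 1 hr and -0.07 ± 0.395 at 2 hr. On the arrays where Oxt and Avp were highest, Crh was at 22.5 and 22.0, below its 2 highest readings of 34.1 and 32.2.

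The widespread peptides lay above the floor on every array, and none was highest on an array of high Oxt and Avp. Sst was read by 2 probe sets. On M25890_at it was 1458.7, 2373.3 and 922.6 on the controls, 1045.1 and 1408.3 at 1 hr, and 1689.6, 1291.0 and 613.2 at 2 hr. On K02248cds_s_at it was 665.3, 732.4 and 377.1, then 380.6 and 790.9, then 514.3, 675.5 and 433.6. Both Sst probe sets were lowest on control replicate 3, 1 hr replicate 1 and 2 hr replicate 3, which are the 3 arrays with the highest top intensities. The part of that array property in the Sst readings was not tested gene by gene, and its bearing on the relation of Sst to Npy is given with their correlation.

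Npy (M15880_at) read 340.9, 521.6 and 311.7 on the controls, 316.3 and 447.1 at 1 hr, and 461.0, 394.3 and 281.3 at 2 hr, and its 3 lowest readings were on those same arrays. Vip (X02341cds_at) read 44.9, 55.3 and 21.3 on the controls, 25.2 and 43.3 at 1 hr, and 81.4, 28.4 and 42.3 at 2 hr. Vip was highest on 2 hr replicate 1 and lowest on control replicate 3, and the groups overlapped. The 2 hr changes were -0.42 ± 0.475 and -0.10 ± 0.374 for Sst, -0.04 ± 0.308 for Npy and 0.30 ± 0.55 for Vip. The 1 hr changes were -0.28 ± 0.531 and -0.05 ± 0.419 for Sst, -0.02 ± 0.344 for Npy and -0.18 ± 0.615 for Vip. For Npy the 95% interval at 2 hr ran from -0.73 to 0.65, so changes within that interval cannot be told from none with these arrays.

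**Figure D1:**
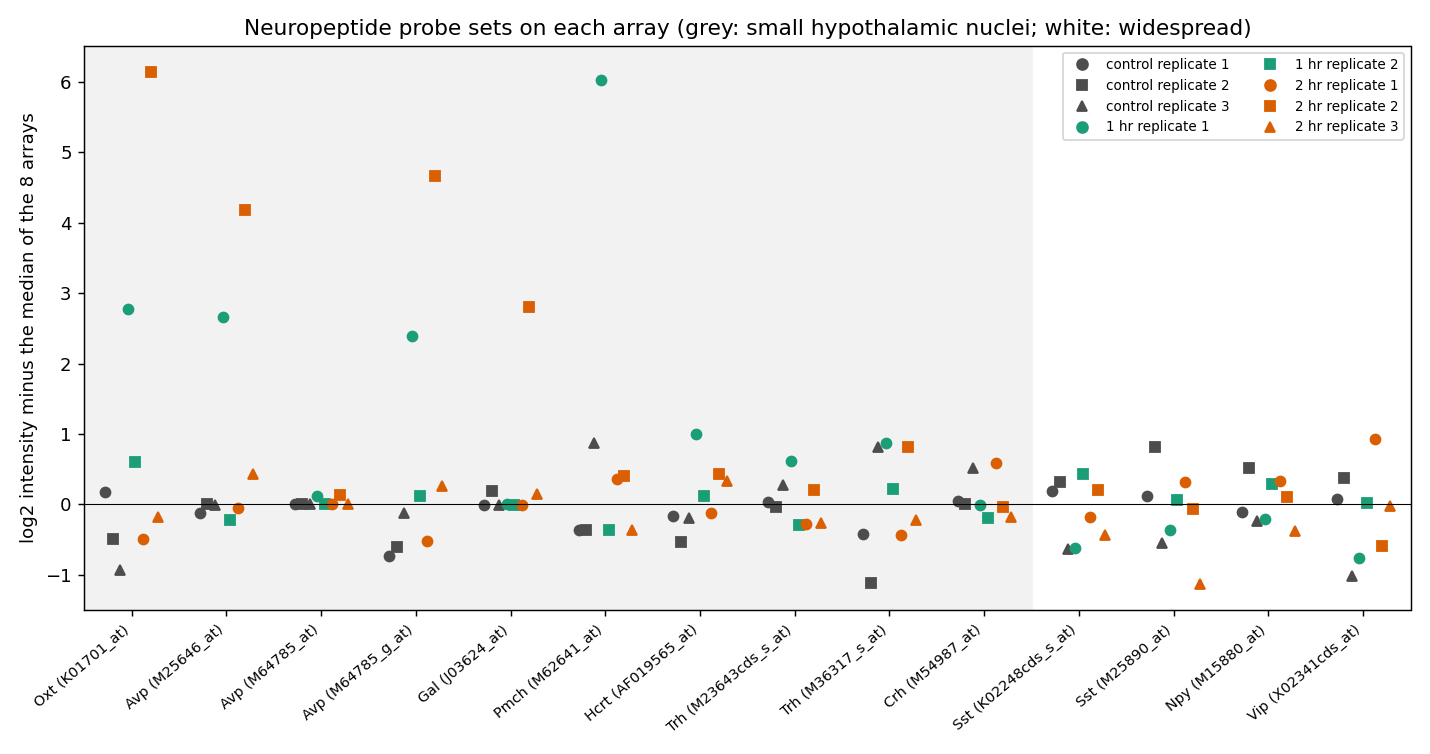
Log2 intensity of each of the 14 neuropeptide probe sets on each of the 8 arrays, minus that probe set's median over the arrays. Colour marks the group and shape the replicate number. The 10 probe sets on grey are those of hypothalamic nuclei peptides, among which Oxt and 2 Avp probe sets were high on 1 hr replicate 1 and 2 hr replicate 2, Pmch on the former and Gal on the latter.

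None of the 14 probe sets passed in any comparison, and neither did any other probe set on the array. The share of the 7770 probe sets with a limma adjusted p under 0.05 was 0.0% in each of the 3 comparisons. The smallest adjusted p was 0.492 at 2 hr, 0.684 at 1 hr and 0.411 from 1 hr to 2 hr. At an unadjusted p under 0.05, limma gave 86 probe sets higher and 53 lower at 2 hr, 142 higher and 66 lower at 1 hr, and 72 higher and 143 lower from 1 hr to 2 hr. Among the neuropeptides only Hcrt at 1 hr was in these counts, 1 of 14 beside 1.83% of all probe sets in that direction. At 2 hr, Hcrt was the 1 probe set of 14 whose groups did not overlap, against 2.9% of all probe sets higher without overlap. At 1 hr, Hcrt, Oxt and Avp (M64785_g_at) were higher without overlap, 3 of 14 against 7.54% of all probe sets, and Crh was lower, 1 of 14 against 5.11%.

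By direction, 9 of the 14 probe sets were higher and 5 lower at 2 hr, beside 52.3% higher over all probe sets, with a median log2 change of 0.19 against 0.018. Without 2 hr replicate 2 that median was 0.0055, without 2 hr replicate 1 it was 0.023, and without 2 hr replicate 3 it was 0.35. At 1 hr, 8 were higher and 6 lower, beside 55.8% higher over all probe sets, with a median of 0.06 against 0.054. From 1 hr to 2 hr, 6 were higher and 8 lower, beside 47.4% higher, with a median of -0.02 against -0.026. With 1 probe set per gene, the 7 hypothalamic nuclei peptides had a median of 0.52 at 2 hr and 0.86 at 1 hr, with 5 of 7 higher in each. Without 1 hr replicate 1 the 1 hr median was -0.18, with 2 of 7 higher, and without 2 hr replicate 2 the 2 hr median was 0.017. The 3 widespread peptides had medians of -0.04 at 2 hr and -0.18 at 1 hr, with 1 of 3 and 0 of 3 higher. Leaving out 1 array at a time moved these medians from -0.20 to 0.19 at 2 hr and from -0.59 to 0.21 at 1 hr. The direction of both groups at 1 hr, and of the widespread group at 2 hr, thus depended on single arrays. These medians were not tested against each other. Both comparisons use the same 3 controls, so their directions are not independent.

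**Figure D2:**
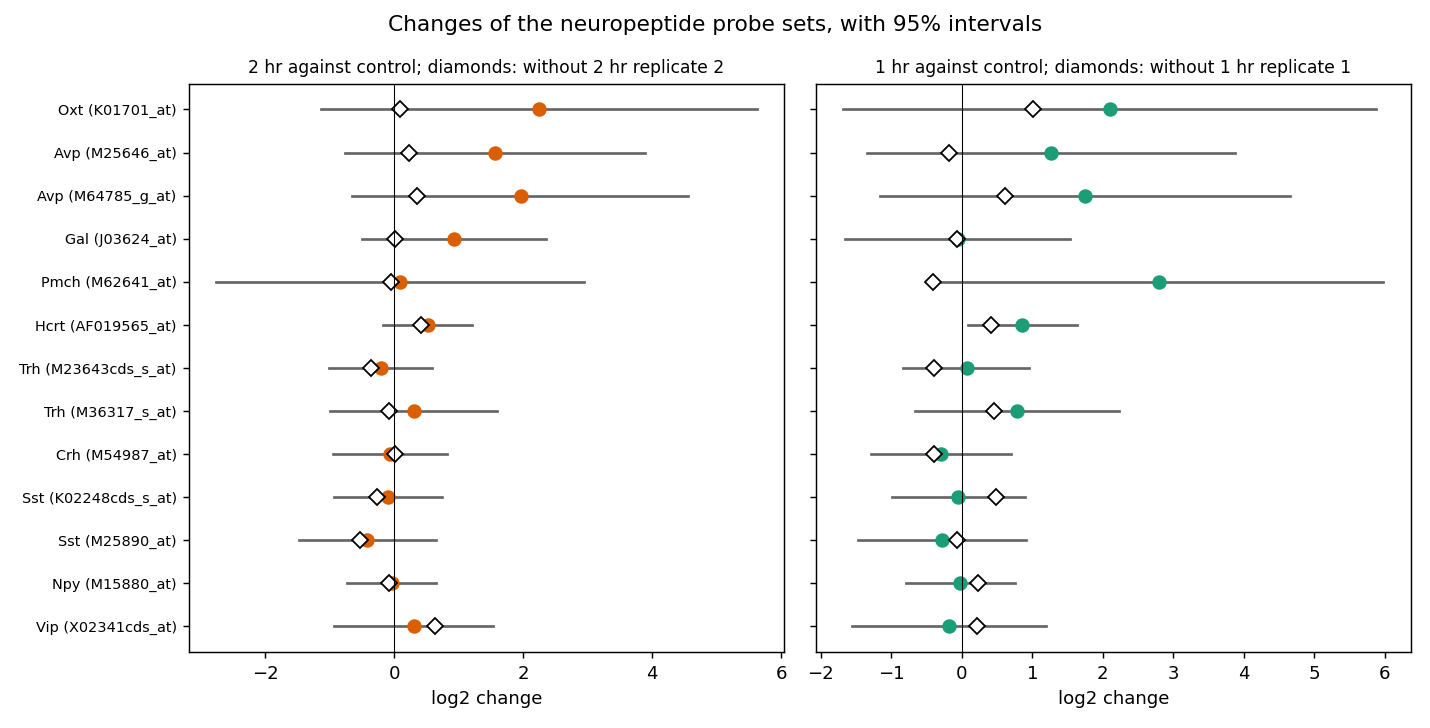
Log2 change of 13 neuropeptide probe sets at 2 hr against control (left) and at 1 hr against control (right), as filled points with 95% intervals; the Avp probe set above the floor on only 2 arrays is left out. Open diamonds give the change without 2 hr replicate 2 (left) or without 1 hr replicate 1 (right), where Oxt at 2 hr moved from 2.24 to 0.088 and Pmch at 1 hr from 2.79 to -0.41.

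The members differed widely in their spread between arrays of one group. The residual standard deviation within groups was set against that of probe sets whose mean log2 intensity lay within 0.5. Oxt had a residual standard deviation of 2.49, above 99.9% of 1296 such probe sets, and its range of 7.08 on the log2 scale was the widest of all 7770 probe sets. Pmch stood at 2.09, above 99.9% of its comparison set, and its range of 6.39 ranked 3 over the array. Avp stood at 1.72 and 1.92 on its 2 brighter probe sets, above 99.6% and 99.8%, and Gal at 1.00, above 97.3%.

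The remaining hypothalamic peptides had spreads within the bulk of probe sets of like brightness, with 1 Trh probe set in the upper part. Hcrt had a residual standard deviation of 0.36, above 37.8% of its comparison set, Trh 0.35 and 0.78, above 29.4% and 73.2%, and Crh 0.32, above 6.78%. The widespread peptides lay in the same band, with Sst at 0.51 and 0.66, above 60.0% and 79.9%, Npy at 0.38, above 36.8%, and Vip at 0.71, above 65.0%. The division therefore ran within the hypothalamic group, with Oxt, Avp, Pmch and Gal on one side and Hcrt, Trh and Crh on the other. The percentages are descriptions of these 8 arrays, without a test.

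**Figure D3:**
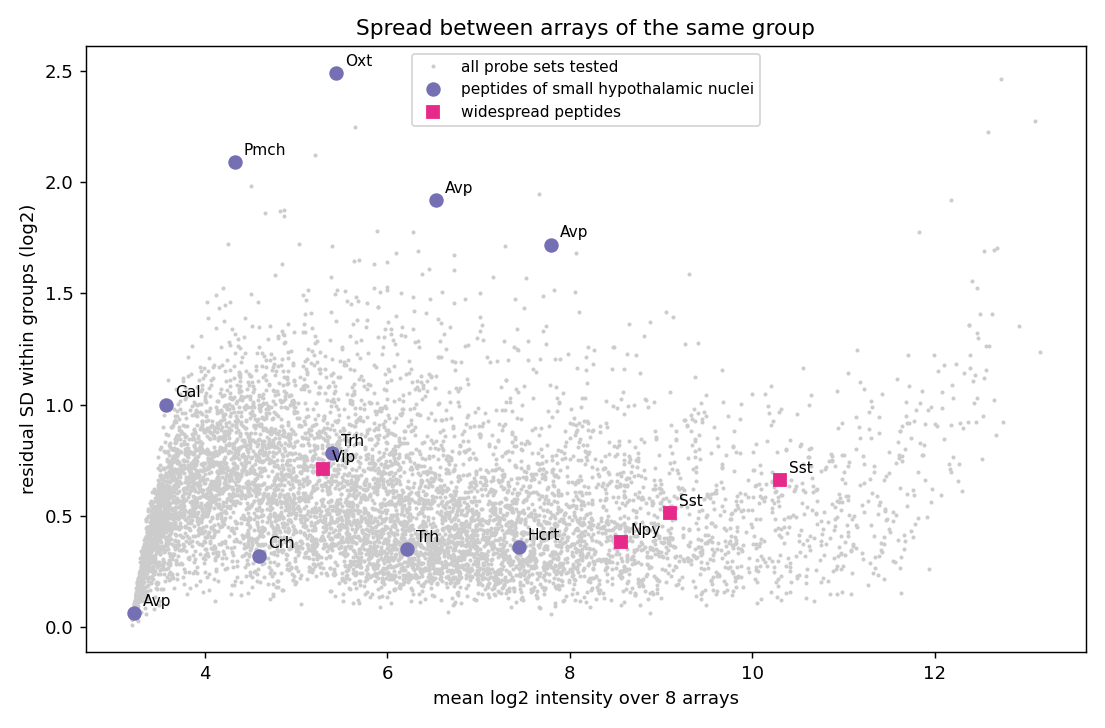
Residual standard deviation within groups against mean log2 intensity for the 7770 probe sets tested (grey), with the neuropeptide probe sets named. Oxt, Pmch and 2 Avp probe sets lie at the upper edge at 1.72 to 2.49, and the remaining Avp probe set, at the floor on most arrays, lies at the lower left.

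Sst and Npy, which are often made in the same interneurons, ran together over the arrays. Over the 8 arrays, Pearson's r between their brightest probe sets was 0.91 (exact permutation p = 0.00119, two-sided; 0.00714 after Benjamini-Hochberg adjustment over 6 pairs) and Spearman's rho was 0.93 (exact permutation p = 0.00223, adjusted 0.0134). Without the 2 arrays farthest from the median of Sst, control replicate 2 and 2 hr replicate 3, r was 0.81. On deviations from the group means it was 0.94. The relation was weaker within the 2 sets of arrays defined by top intensity. On deviations from the means of the 3 arrays of highest top intensity and of the other 5, r was 0.72. It no longer passed there (permutation p = 0.0421, adjusted 0.253). Within the split by the 5S reading r was 0.89 (permutation p = 0.00342, adjusted 0.0205). For both splits the deviations were permuted over all 8 arrays, across the sets, so these p-values are only approximate. After quantile normalization r was 0.84 (exact permutation p = 0.00575, adjusted 0.0345) and rho 0.71 (exact permutation p = 0.0576). Of 4675 probe sets compared, 10 (0.214%) had an r with Sst at least as high as that of Npy. The compared probe sets had a single gene symbol and spanned at least 1 on the log2 scale, whereas Npy spanned 0.89. All these values are for Sst on M25890_at, and the other Sst probe set, K02248cds_s_at, was not tested against Npy. K02248cds_s_at was highest on 1 hr replicate 2, while M25890_at and Npy were highest on control replicate 2.

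No pooled correlation is given for pairs with Oxt, Avp or Pmch, since 1 or 2 arrays stood apart by at least 1.5 on the log2 scale. Over the 6 arrays left without 1 hr replicate 1 and 2 hr replicate 2, Oxt and Avp had an r of -0.31 (exact permutation p = 0.567, adjusted 0.85). Their likeness therefore rests on those 2 arrays. Over the same 6 arrays, Avp had an r of -0.19 with Crh (exact permutation p = 0.783), -0.68 with Sst (exact permutation p = 0.146) and -0.58 with Pomc (exact permutation p = 0.229), none below 0.05 before or after adjustment. Pmch and Hcrt, neighbours in the lateral hypothalamus, had an r of 0.06 over the 7 arrays without 1 hr replicate 1 (exact permutation p = 0.852).

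**Figure D4:**
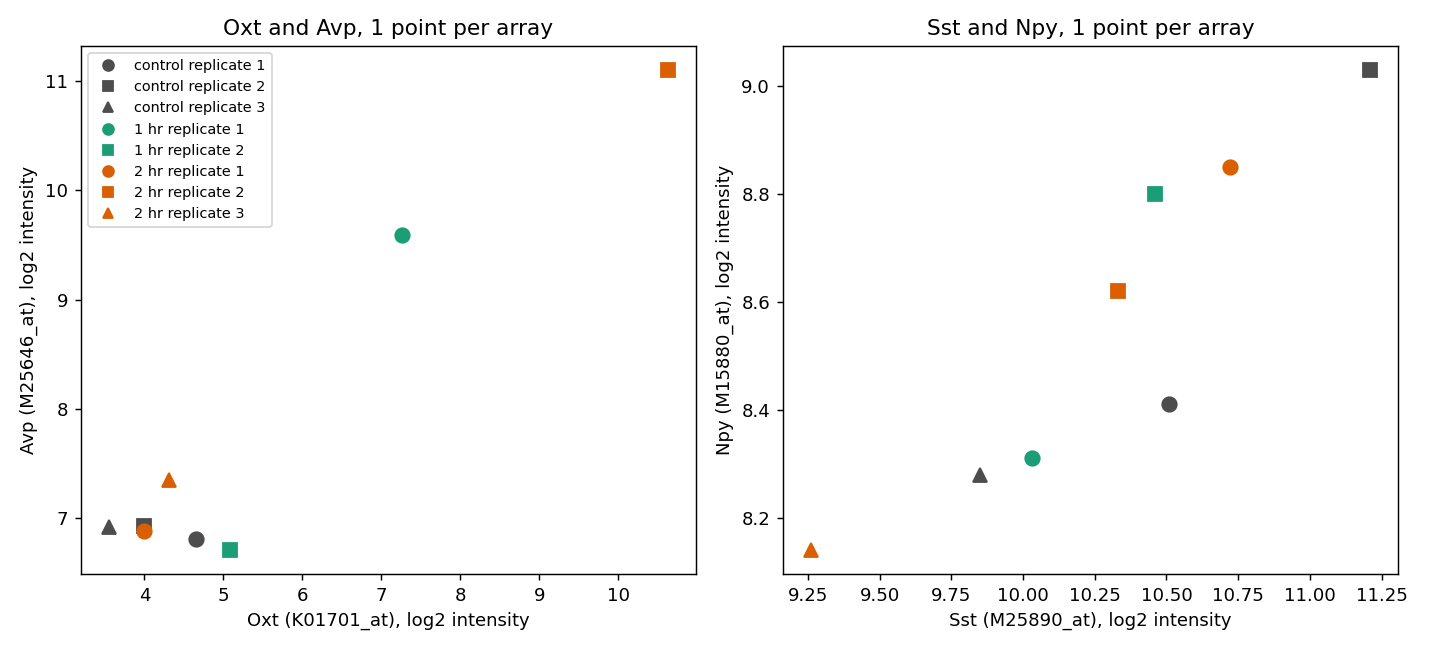
Log2 intensity of Avp against Oxt (left) and of Npy against Sst (right), 1 point per array, with colour for the group and shape for the replicate number. On the left 1 hr replicate 1 and 2 hr replicate 2 lie far from a cluster of 6 arrays, and on the right the 8 arrays lie along a line with r of 0.91.

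The arrays of high Oxt and Avp were set beside markers of other tissues that a brain dissection can hold. The summed intensity of the 7 hypothalamic nuclei peptides was 2155 on 1 hr replicate 1, 4180 on 2 hr replicate 2 and 359 to 483 on the other 6 arrays. This sum holds Oxt and Avp, by which the arrays were picked out, and Pmch and Gal, so it restates those readings. Hcrt, Trh and Crh alone summed to 455.8 and 321.7 there, against 204.5 to 282.7 elsewhere, and Trh and Crh alone to 133.5 and 105.3, against 78.9 to 120.3. Of 10 anterior and intermediate pituitary markers, all were measured, and their sum was 1153 on 2 hr replicate 2, 763 on 1 hr replicate 2 and 369 to 503 elsewhere. On 2 hr replicate 2, Cga, the common subunit of the pituitary glycoprotein hormones, read 594.1 against 104.9 to 132.0 on the other arrays. Tshb, the thyrotropin subunit, read 57.3 there against 1.8 to 16.1, and Pomc, the precursor of corticotropin, 137.5 against 12.7 to 102.5. Prl and Gh1, the most abundant hormones of that gland, were not high there, at 13.6 and 22.7 against up to 51.0 and 156.5 on 1 hr replicate 2. The remaining markers, Lhb, Fshb, Pou1f1, Ghrhr and Gnrhr, were not highest there either. They read 81.8, 15.9, 4.7, 202.2 and 22.8, against up to 83.3, 26.3, 11.5, 213.9 and 33.5 on other arrays. On 1 hr replicate 1 the pituitary sum was 500.0, within the range of the controls, at 441 to 503. Prl differed from that sum: it read 44.5 and 51.0 on the 1 hr arrays, 4.1 to 15.2 on the controls and 3.0 to 13.6 at 2 hr. Its 1 hr change of 1.95 ± 0.388 had an unadjusted p of 0.000579 (limma adjusted p = 1.0), and from 1 hr to 2 hr it was -2.19 ± 0.388 (limma adjusted p = 0.631). The 1 hr arrays were thus both high for Prl, while 1 of them was high for Oxt, Avp and Pmch.

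Markers of the striatum were also high, in part, on 2 hr replicate 2 but not on 1 hr replicate 1. The sum over 5 of 6 striatal markers was 1895 on 2 hr replicate 2 and 1691 on control replicate 3, against 532 to 925 elsewhere, and it was 678 on 1 hr replicate 1. The dopamine receptor gene Drd2 read 124.1 on 2 hr replicate 2 against 8.7 to 27.5, and Gng7 was also highest on 2 hr replicate 2, at 1041.7. Drd1, Adora2a and Rgs9 were instead highest on control replicate 3, at 193.3, 537.0 and 284.6, where Drd2 read 14.8. On 2 hr replicate 2 they read 121.0, 362.8 and 245.2. Of 5 choroid plexus markers, 2 were measured. Ttr, which carries thyroid hormone, read 2964.6 on 1 hr replicate 2 against 120.9 to 309.0, while Kl read 36.0 there against 20.4 to 50.3. The summed hypothalamic nuclei peptides on that array were 402. The sum of 2 of 3 pineal markers ran from 15 to 66 and was highest on 2 hr replicate 2, and that of 3 of 6 cerebellar markers ran from 242 to 523. Forebrain interneuron markers, all 5 measured, summed to 1227 to 1921. Among them the GABA-synthesising enzyme gene Gad2, which read 11.5 to 50.7, had log2 changes of 1.04 at 2 hr and 1.46 at 1 hr (limma unadjusted p = 0.0251 and 0.00831, limma adjusted p = 1.0 in both). The other markers of this list changed less. In the same order, Gad1 was at 0.24 and 0.16, Slc32a1 at 0.11 and -0.08, Pvalb at -0.27 and 0.29, and Calb2 at 0.16 and 0.76. The sum over 6 of 8 general neuron markers ran from 4201 to 7762, with the lowest sums on control replicate 3 and 2 hr replicate 2. General neuron markers were thus present on all arrays labelled whole brain. The part of the pituitary and striatal markers, or of how much hypothalamus each sample held, in the high Oxt, Avp, Pmch and Gal readings was not tested.

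**Figure D5:**
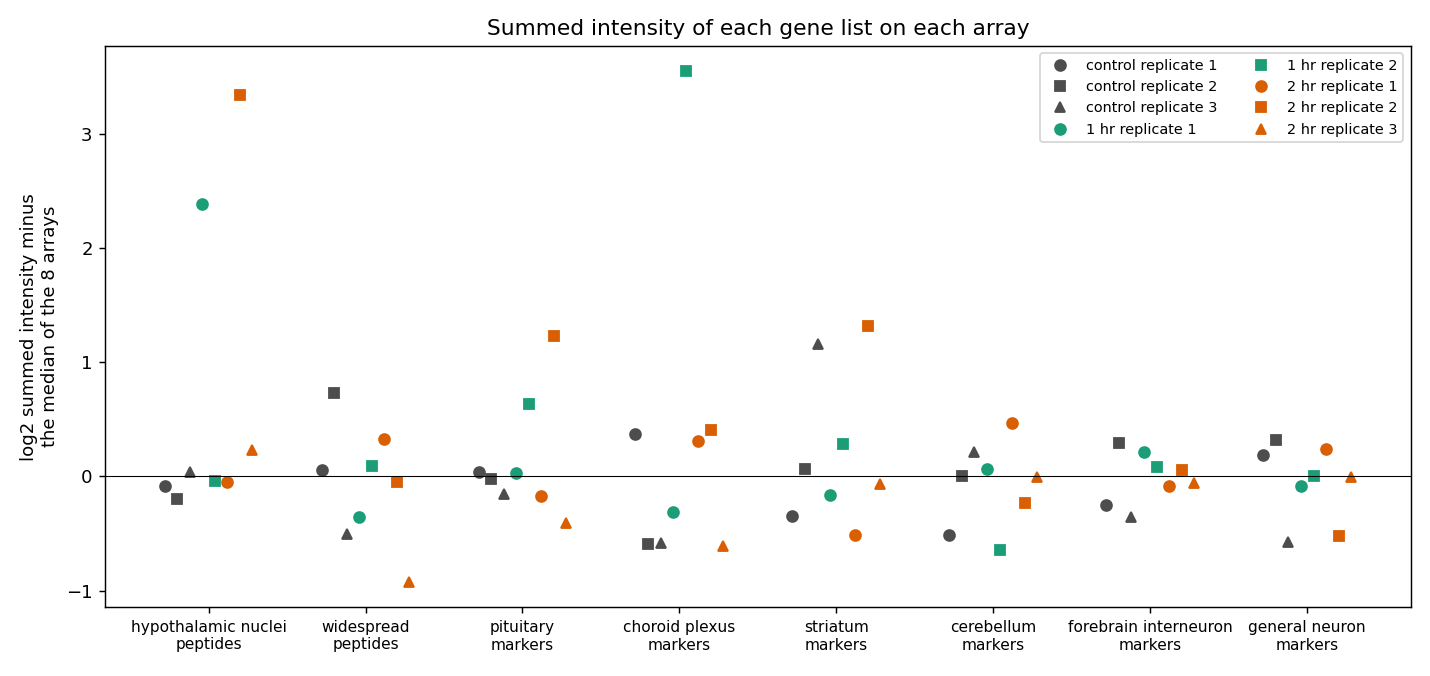
Log2 of the summed intensity of each gene list on each array, minus the median of the 8 arrays, with colour for the group and shape for the replicate number. The sum of the hypothalamic nuclei peptides, which contains Oxt and Avp themselves, is 2155 and 4180 on the arrays where those genes are high. The pituitary and striatal sums are highest on 2 hr replicate 2, and the striatal sum is also high on control replicate 3. The choroid plexus sum is highest on 1 hr replicate 2, where nearly all of it is Ttr.

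The other genes of peptide signalling gave no passing member in any comparison. Of 32 other neuropeptide precursors, 18 were measured, with 6 higher and 12 lower at 2 hr (median -0.14) and 7 higher and 11 lower at 1 hr (median -0.15). Without control replicate 3 these medians were 0.024 and 0.082, and the 2 hr median was 0.044 without 2 hr replicate 3. The smallest unadjusted p among them was that of the glucagon precursor Gcg at 1 hr, with a log2 change of 1.40 ± 0.377 (unadjusted p = 0.00421, limma adjusted p = 1.0), and Gcg was at 3.0 to 12.4 on the 6 other arrays, near the floor. Gcg was also highest on 1 hr replicate 1, at 36.9 against 16.3 on 1 hr replicate 2, and its change was 0.82 without the former. At 1 hr the next were Tac3 at -0.68, the C-type natriuretic peptide Nppc at -0.63 and neuromedin U (Nmu) at -0.29. Tac3 was -0.37 without 1 hr replicate 1 and Nmu -0.12 without control replicate 3. At 2 hr they were Nppc at -0.61, Npw at 0.70, the gonadotropin-releasing hormone precursor Gnrh1 at -1.0 and the enkephalin precursor Penk at -0.92. Nppc read 31.5 to 41.5 on the exposed arrays and 53.6 to 59.7 on the controls. Over all probe sets tested, 2.55% were lower without overlap at 2 hr and 5.11% at 1 hr. The share with every exposed array below every control was not counted. The value of Penk rested on control replicate 3, where it read 2011.0 and without which the change was -0.031.

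Of 28 neuropeptide receptors and binding proteins, 22 were measured, with 9 higher and 13 lower at 2 hr (median -0.02) and 12 higher and 10 lower at 1 hr (median 0.05). At 2 hr the receptors of smallest unadjusted p were Npy4r, which binds pancreatic polypeptide, at -0.68 and the pituitary adenylate cyclase-activating peptide receptor Adcyap1r1 at 1.51, followed by Trhr, the Trh receptor, at 0.46 and Vipr2, a Vip receptor, at 0.45. Trhr at 2 hr was 0.16 without control replicate 2, and Vipr2 was 0.14 without 2 hr replicate 3. At 1 hr they were the galanin receptor Galr1 at 1.08, Trhr at 0.75, Adcyap1r1 at 0.88 and Npy4r at -0.37. Galr1 was at 42.7 on 1 hr replicate 1 and at 12.1 on 1 hr replicate 2, and its change was 0.17 without the former. Outside the 1 hr group it exceeded the floor only on control replicate 1, at 15.1. Adcyap1r1 at 1 hr was -0.017 without 1 hr replicate 2. On the controls Adcyap1r1 read 33.6, 8.4 and 6.1, so its readings on control replicate 2 and control replicate 3 were floored. Of 19 genes of precursor processing and dense core vesicles, 14 were measured, with 10 higher and 4 lower at 2 hr (median 0.10) and 8 higher and 6 lower at 1 hr (median 0.02). The convertase Pcsk6 was at 0.90 at 2 hr and 0.80 at 1 hr, and at 0.32 and 0.22 without control replicate 3. The processing list's medians without that control were -0.078 at 2 hr and -0.23 at 1 hr. At 2 hr Pcsk2, the main neuronal convertase for these precursors, was at -0.37, the carboxypeptidase Cpe at 0.36 and the Pcsk2 chaperone Scg5 at -0.27. Pcsk2 was -0.0061 without 2 hr replicate 2, Cpe 0.086 without control replicate 3 and Scg5 -0.07 without 2 hr replicate 3. At 1 hr Scg5 was at -0.43, the neurosecretory protein Vgf at 0.41 and Qpct, which forms pyroglutamyl ends, at 0.40. These were -0.10 for Scg5 and -0.031 for Qpct without 1 hr replicate 1, and -0.24 for Vgf without control replicate 3. Qpct exceeded the floor only on control replicate 3, at 9.7, and 1 hr replicate 1, at 16.5, so its change rests on floored values.

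The genes whose log2 intensities ran most like each member over the 8 arrays were listed by Pearson's r among 4677 probe sets with a single gene symbol that spanned at least 1 on the log2 scale, as a description with no test. For Oxt these were Avp, Nubpl and Igf1, and for Avp they were Oxt, Nubpl and Scn4a. No r is given for these, since it would rest on 1 hr replicate 1 and 2 hr replicate 2. Igf1 read 494.0 on the latter, 102.3 on the former and 58.7 to 75.6 elsewhere. For Hcrt the listed genes were Bpifa5 (r = 0.95), Eva1a (0.927) and Rrbp1 (0.922). For Sst they were Map3k1 (0.947), Dlst (0.944) and Epcam (0.944), and for Vip they were Taok1 (0.978), Rap1b (0.965) and Nap1l1 (0.959). Gal, Pmch, Trh, Crh and Npy either were above the floor on too few arrays or spanned too little for the same listing.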

How the data were processed

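Total RNA labelled whole rat brain was measured on 8 arrays, and the labels do not say how many animals it came from. The authors deposited 1 linear intensity per probe set and array. Which software and scaling target they used was not given in the sources used here. Column means, trimmed by 2%, differed by at most 0.106%, so the intensities were used as deposited. The 59 control probe sets were left out. Values were floored at 9.1 and turned to log2, and 7770 probe sets above the floor on at least 2 arrays were kept (970 removed). Genes were named through the platform's table, updated to RefSeq assembly GRCr8. Groups came from the sample titles.

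Comparisons used limma 3.58.1 in R 4.3.3 (lmFit, contrasts.fit, eBayes with an intensity trend) on all 8 arrays with 1 mean per group, two-sided, with adjustment over 7770 probe sets, and were tested on simulated data. The number of arrays limits the precision. A log2 change of a probe set near the floor understates the difference. Pairs of genes were tested by exact permutation, which is only approximate for deviations from the means of sets of arrays. Genes with several probe sets used the brightest in lists and pairs. All member probe sets are named; from the lists of other precursors, receptors and processing genes, the 4 genes of smallest unadjusted p in each exposure comparison are named. Single marker genes were named after their values were seen. The members and lists were chosen with earlier results of these data known. Alternatives were other normalizations, floors, filters, blocks and arrays left out. Sequences are RefSeq's for GRCr8.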

Additional observations from a re-analysis of the deposited data

How the results depend on the processing

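Of 52 log2 changes (28 of neuropeptide probe sets, 24 of other named genes), 29 kept their direction under every alternative that gave a value, and 23 turned or came to 0 in at least 1. None of 1067 alternative values crossed the adjusted p threshold of 0.05 in limma. No probe set passed in any comparison under any alternative except without the filter, where 4 passed at 1 hr and 4 from 1 hr to 2 hr, with no neuropeptide among them. The replicate block gave 0 passing probe sets in each comparison, with 1.47 for Oxt and 0.92 for Hcrt at 1 hr. Same-numbered arrays correlated from -0.331 to 0.286 in their deviations from the group means, so the numbers were not taken as pairs, and the block changed no call. Arrays limit the precision, and the dim Gal and Pmch probe sets carry floored values on 4 of 8 arrays. Several other named genes also carry floored values, among them Galr1, Vipr2, Adcyap1r1, Npw and Qpct. 

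Without the 3 arrays of highest top intensity the turned values were at 2 hr Crh 0.25, Npy 0.016, Vip -0.052 and Penk 0.19, and at 1 hr Avp (M25646_at) -0.16, Trh (M23643cds_s_at) -0.29, Sst (K02248cds_s_at) 0.18, Npy 0.084, Nmu 0.033 and Vgf -0.063, and from 1 hr to 2 hr Pmch 0.75 and Hcrt 0.044. Pmch and Qpct at 1 hr and Vipr2 at 2 hr came to 0.0 there. Without both arrays of high Oxt and Avp, a choice made after seeing the data, the turned values were at 2 hr Pmch -0.046, Trh (M36317_s_at) -0.085 and Crh 0.017, and at 1 hr Avp (M25646_at) -0.18, Pmch -0.41, Trh (M23643cds_s_at) -0.39, Sst (K02248cds_s_at) 0.48, Npy 0.23, Vip 0.21 and Qpct -0.031, and from 1 hr to 2 hr Pmch 0.37. With the 3 arrays of low 5S reading as a block the turned values were at 2 hr Pmch -0.057, Trh (M36317_s_at) -0.089, Sst (K02248cds_s_at) 0.04 and Npy 0.11, and at 1 hr Trh (M23643cds_s_at) -0.11, Sst (K02248cds_s_at) 0.22, Sst (M25890_at) 0.37, Npy 0.28 and Vip 0.63. With the 3 arrays of highest top intensity as a block the turned values were at 1 hr Gal 0.025, Sst (K02248cds_s_at) 0.077 and Npy 0.066. With median centring the turned values were at 1 hr Trh (M23643cds_s_at) -0.049. With a floor at the 40th percentile the turned values were at 2 hr Crh 0.028. With each array left out in turn, the ranges that crossed 0 were at 2 hr Crh -0.30 to 0.095, Npy -0.20 to 0.19, Pmch -0.11 to 0.50, Sst (K02248cds_s_at) -0.39 to 0.087, Sst (M25890_at) -0.76 to 0.0041, Trh (M36317_s_at) -0.14 to 0.82 and Vip -0.12 to 0.64, and at 1 hr Adcyap1r1 -0.017 to 1.77, Avp (M25646_at) -0.18 to 2.71, Gal -0.088 to 0.0079, Npy -0.27 to 0.23, Pmch -0.41 to 5.98, Qpct -0.031 to 0.83, Sst (K02248cds_s_at) -0.58 to 0.48, Sst (M25890_at) -0.62 to 0.065, Trh (M23643cds_s_at) -0.39 to 0.52, Vgf -0.24 to 0.81 and Vip -0.59 to 0.21, and from 1 hr to 2 hr Hcrt -0.79 to 0.10 and Pmch -5.89 to 0.50. On deviations from group means r was 0.02 for Oxt and Avp and 0.43 for Avp and Pomc. Within the split by top intensity it was 0.04 for Oxt and Avp and 0.72 for Sst and Npy, and within the split by 5S reading -0.19 for Pmch and Hcrt, both splits being added after seeing the data. At the 40th percentile floor Pmch exceeded the floor only on 1 hr replicate 1, so the filter removed it and no correlation with Hcrt was computed. The cause of these turns was not tested.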
